A study of Caenorhabditis elegans with 2 samples.

Results

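Among the 826 autosomal peaks of the deposited optimal list, 233 lay in distal intergenic sequence, which is 28.2% of them (95% Clopper-Pearson interval 25.2 to 31.4). The list holds 1115 peaks in all. A peak was counted as distal intergenic when its summit fell on an autosome, outside every protein-coding gene body and outside every window from 1000 bp upstream to 200 bp downstream of a protein-coding transcript's 5′ end. The other autosomal peaks comprised 330 in those promoter windows and outside introns, 241 in introns and 22 elsewhere in gene bodies. A further 100 peaks on the X chromosome met the rule apart from the chromosome.

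The data are chromatin immunoprecipitation sequencing (ChIP-seq, which recovers the DNA bound by a chosen protein) of MDL-1 in whole L4 larvae, the last larval stage of Caenorhabditis elegans. There was 1 group of 2 biological replicates, with no contrasting condition. The strain was OP355, with the genotype unc-119(tm4063) III; wgIs355, where wgIs355 is an integrated transgene, and both replicates carried all of it. The worms were pooled male and female animals of unknown age. Most labels name MDL-1 as the target, but a note attached to the samples names KLU-1 as the protein carrying the GFP-FLAG tag, and the peak lists cannot settle which label is right. Signal from whole worms is summed over all tissues, so it cannot be told in which cells a site was bound, and no marker gene can be checked in a peak list. Control libraries were not analysed here. The read depth behind the lists is unknown.

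MDL-1 is the worm member of the Mad family of basic helix-loop-helix leucine zipper proteins. It pairs with the Max-like protein MXL-1, and such pairs bind the E-box CACGTG. In mammals, Mad proteins compete with Myc for Max and repress transcription. Worms have no clear Myc, but have a second pair, the Mondo protein MML-1 with the Max-like protein MXL-2, that binds similar sites. GA repeats, read here as GAGAGA or its reverse complement TCTCTC, are a common feature of worm regulatory DNA.

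The following windows show what the strongest distal summits look like in sequence. Each is 101 bases centred on the summit, from the plus strand of the RefSeq WBcel235 (ce11) assembly. The 4 strongest members with CACGTG within 50 bp of the summit follow, with that motif in capitals.
gdh-1/tgt-1, chrIV:11956453-11956553: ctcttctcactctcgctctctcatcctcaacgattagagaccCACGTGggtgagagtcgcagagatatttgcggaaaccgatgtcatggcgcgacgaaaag
aakg-1/gldi-8, chrIII:12583642-12583742: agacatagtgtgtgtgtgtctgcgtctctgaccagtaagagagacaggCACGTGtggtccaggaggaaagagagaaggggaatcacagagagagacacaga
T04C4.3/fnip-2, chrIV:2219579-2219679: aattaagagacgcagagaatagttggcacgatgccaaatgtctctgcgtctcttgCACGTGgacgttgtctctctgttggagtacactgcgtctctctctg
lpin-1/letm-1, chrV:13657494-13657594: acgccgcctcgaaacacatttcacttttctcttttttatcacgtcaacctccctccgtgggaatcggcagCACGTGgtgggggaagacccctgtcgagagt

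The 3 strongest members with GAGAGA or TCTCTC and without CACGTG follow, with the GA repeat in capitals.
mtm-3/xbx-5, chrIII:3801477-3801577: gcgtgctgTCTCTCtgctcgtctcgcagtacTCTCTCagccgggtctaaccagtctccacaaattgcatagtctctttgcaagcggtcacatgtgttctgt
srw-60/nhr-88, chrII:2974047-2974147: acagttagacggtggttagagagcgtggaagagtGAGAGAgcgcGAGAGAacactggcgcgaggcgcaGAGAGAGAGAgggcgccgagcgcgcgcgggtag
F42C5.9/ifo-1, chrIV:7320134-7320234: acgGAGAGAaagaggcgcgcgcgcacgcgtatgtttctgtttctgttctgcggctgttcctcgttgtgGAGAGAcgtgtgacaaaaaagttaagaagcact

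The 2 strongest members with neither motif follow, so they have no capitals.
T23F11.6/ppm-2, chrIII:4649405-4649505: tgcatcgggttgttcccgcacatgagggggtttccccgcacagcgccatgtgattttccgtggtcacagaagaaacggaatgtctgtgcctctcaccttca
chw-1/egl-9, chrV:10466682-10466782: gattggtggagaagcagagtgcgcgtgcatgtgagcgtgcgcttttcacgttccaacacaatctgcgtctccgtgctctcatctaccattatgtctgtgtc

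The members' signal, the authors' peak height on the peak caller's own scale, ran from 48.2 to 508 with a median of 71.7, and is used here only to rank peaks. The median was 69.3 for promoter peaks, 73.7 for intronic peaks and 72.7 for X distal peaks. Distal summits took 8 of the 25 strongest places of the whole list and 20 of the strongest 100, and were 20.9% of the list. Promoter peaks took 4 and 18 of those places, intronic peaks 3 and 20, and X distal peaks 5 and 18, which were not tested. Of the members, 51.1% had a signal above the autosomal median of 70.7. The share was 47.9% among promoter peaks (Fisher's exact test, two-sided, adjusted p = 0.816) and 52.7% among intronic peaks (adjusted p = 0.931). Neither difference passed the threshold, and no other measure of rank was tested. All p-values here compare peaks within these lists, in which neighbouring peaks are not independent, and do not compare samples.

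The strongest member lay between the convergent genes gdh-1, encoding glutamate dehydrogenase, and tgt-1, encoding a tRNA guanine transglycosylase. Its signal was 508, and it ranked 5 in replicate 1 and 3 in replicate 2. The summit was 962 bp from the gdh-1 body and 1044 bp from tgt-1, at the 3′ end of each gene. Both the E-box and a GA repeat stood in its window, with the E-box 5.5 bp from the summit. The second member had a signal of 503 and ranked 2 and 8 in the replicates. It lay between 2 divergent 5′ ends, 1533 bp from T23F11.6 and 1039 bp from the protein phosphatase gene ppm-2. The third, with a signal of 491 and ranks of 4 and 7, was 1785 bp upstream of egl-9, whose product hydroxylates the hypoxia factor HIF-1, and 2072 bp from the body of chw-1. Neither of these windows held CACGTG or the GA repeat, but both held CATGTG, another E-box form.

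The next 3 members each lay upstream of a 5′ end on 1 side and faced a 3′ end on the other. The fourth had a signal of 442 and ranks of 6 and 4. It was 1060 bp upstream of mtm-3, a myotubularin phosphatase gene, but only 374 bp from the body of xbx-5. The fifth had a signal of 389 and ranks of 9 and 6, and stood far from both neighbours, 8291 bp upstream of aakg-1, an AMP-activated kinase gamma subunit gene, and 12302 bp from gldi-8. The sixth had a signal of 326 and ranks of 14 and 11, and lay 2043 bp upstream of the O-GlcNAc transferase gene ogt-1 and 186 bp from the body of nuo-4, a respiratory complex subunit gene. All 6 ranked among the 14 strongest regions of each replicate.

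The members placed seventh to twelfth had signals from 276 down to 192. The seventh, with ranks of 15 and 41, lay 1956 bp from sup-26, an RNA-binding protein gene, and 3661 bp from R10E4.3. The eighth, with ranks of 16 and 74, lay between the divergent genes T04C4.3 and fnip-2, 2773 and 3199 bp away; fnip-2 encodes a folliculin-interacting protein. The ninth, with ranks of 56 and 16, lay between lpin-1, the lipin phosphatidate phosphatase gene, and the mitochondrial ion transporter gene letm-1, 3415 and 3713 bp away. The tenth ranked 42 in each replicate and lay 4981 bp from cutl-22, a cuticlin-like gene, and 4789 bp from the calmodulin gene cmd-1. The eleventh, with ranks of 51 and 77, lay 2170 bp from the nuclear receptor gene nhr-34 and 2495 bp from the insulin-like peptide gene ins-8. The twelfth, with ranks of 74 and 50, lay 2515 bp from Y17G7B.17 and 827 bp from Y17G7B.18. Of these 12 summits, those beside gdh-1, aakg-1, T04C4.3, lpin-1, nhr-34 and Y17G7B.17 held CACGTG.

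Across the 233 members, the distance to the nearest 5′ end had a median of 2398 bp, with quartiles at 1607 and 3824 bp, and reached 13403 bp. The summit was upstream of that 5′ end in 187 members (80.3%) and downstream in 46. In 51 members the distance was over 1000 and up to 1500 bp, and in 36 it exceeded 5000 bp. The nearest 5′ end belonged to one of the flanking genes in all 233. The nearer gene body was a median of 1999 bp away and the farther one 4592 bp. The nearer edge was a gene's 5′ end in 145 members and a 3′ end in 88. Neither this split nor the upstream share is given for eligible sequence, so no preference of the peaks can be read from them.

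**Figure D1:**
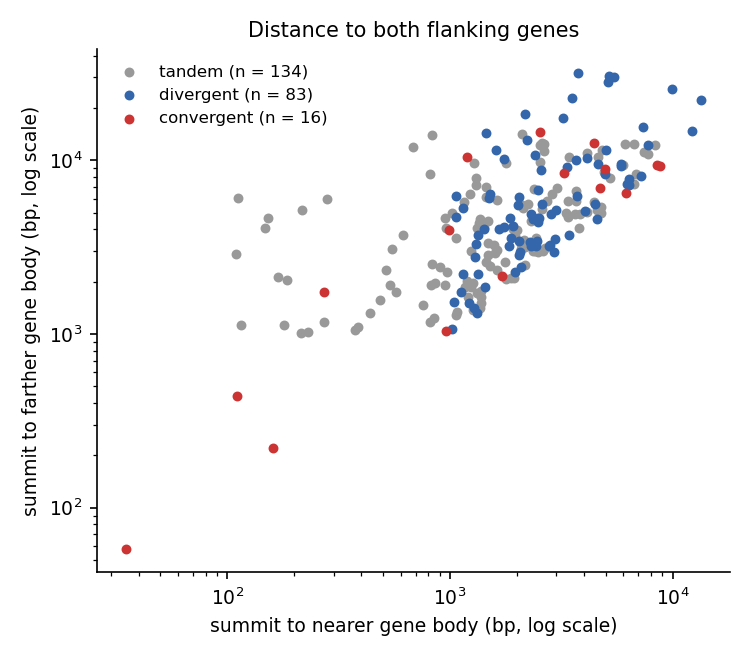
Distance in bp from each of the 233 distal summits to the nearer (x axis, log scale) and the farther (y axis, log scale) flanking protein-coding gene body, coloured by the orientation of the gene pair. Points within 1000 bp of a gene body are tandem or convergent pairs, since the rule keeps summits over 1000 bp upstream of any 5′ end.

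Members were spread over gene pairs of each orientation, but sparse between convergent genes. Spaces that hold sequence meeting the rule numbered 7309, and 187 of them (2.56%) held a member. Tandem pairs held 134 members, or 12.9 per Mb of eligible sequence, and divergent pairs held 83, or 14.8 per Mb. Convergent pairs held 16, or 4.68 per Mb, although they made up 17.6% of eligible sequence. Before the authors' selection, candidate regions numbered 317 per Mb in tandem, 335 in divergent and 188 in convergent spaces, and 4.08%, 4.43% and 2.49% of them were kept. These orientation values were not tested. Spaces with a member were long, with a median of 5815 bp against 2267 bp for all spaces. Longer spaces hold more eligible sequence, and members per Mb of it did not rise steadily with length: there were 7.66 in spaces up to 2000 bp, 16.6 from there to 3000 bp, 11.7 to 5000 bp, 13.9 to 10000 bp and 10.3 above.

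Some spaces held several members, counted by summit, and a few of these members have overlapping intervals. A single member stood in 152 spaces, 26 spaces held 2, 8 held 3 and 1 held 5. The last, the 35563 bp between irld-18 and the DM-domain gene dmd-6 on chromosome IV, held signals of 124, 65.3, 55.9, 52.2 and 65.7. The snt-1/egl-27 space (synaptotagmin and an MTA-like chromatin factor) was 18574 bp long and held signals of 48.6, 57.8 and 69.9. The F54F12.1/Y39E4B.6 space of 15313 bp held 73.7, 133 and 152. Other spaces with 3 were those of Y37D8A.4/Y37D8A.5, W04D12.1/ddx-23, K08B12.3/dmd-7, sup-26/R10E4.3 and ntl-9/flh-2. The lpin-1/letm-1 space, only 7127 bp long, held 95.9, 225 and 163, and its stronger pair both had CACGTG.

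**Figure D2:**
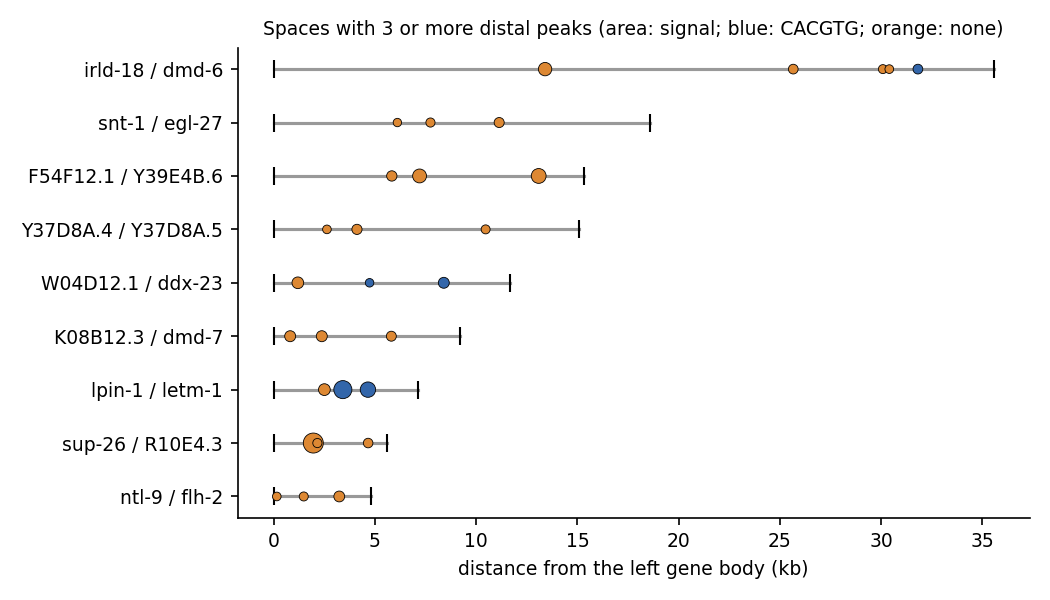
The 9 intergenic spaces with 3 or more distal summits, drawn to scale in kb from the left gene's body (x axis), with black ticks at the gene bodies. Point area follows signal; blue points have CACGTG within 50 bp and orange points do not, and the largest pair with CACGTG lies between lpin-1 and letm-1.

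Another optimal summit lay within 2000 bp of 70 members (30.04%) and of 66 of 330 promoter peaks (20.0%). The difference of 10.04 percentage points (interval 2.82 to 17.4, Newcombe's method) passed Fisher's exact test after adjustment over 13 tests (adjusted p = 0.0452). The nearest such peak was another distal peak in 56 cases, a promoter peak in 13 and an intronic peak in 1, at a median of 1076 bp. In 14 cases it was within 500 bp, at the least 199 bp. Some of these close pairs are summits of overlapping intervals, so the counts are of summits and not of separate bound sites. Closeness is also mutual, so both summits of a close pair of members were counted, while the test treats summits as independent. Its adjusted p-value, near the threshold, therefore cannot be taken at face value. The share was 29.9% at intronic peaks, 26.3% at all autosomal peaks and 19% at X distal peaks, with no test of these, and the intronic share lay close to that of the members. Among the 557 strongest peaks of the list the difference was not called, at 21.6% against 14.7% (adjusted p = 0.484, Fisher's exact test).

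The E-box CACGTG lay within 50 bp of 44 distal summits (18.9%). It stood in 2.87% of the 5570 weaker distal candidates and in 1.42% of all 185303 windows of 101 bp in eligible sequence. Windows centred 500 bp downstream of the members held it in 2.15%. In 28 of the 44 the motif was within 25 bp of the summit, and in 13 within 10 bp. The share was 16.7% at promoter peaks (difference 2.22 points, interval -4.08 to 8.82, adjusted p = 0.816), 23.2% at intronic peaks (difference -4.35 points, interval -11.6 to 3.02, adjusted p = 0.680) and 14% at X distal peaks (difference 4.88 points, interval -4.42 to 12.7, adjusted p = 0.747, Fisher's exact tests). No class difference was detected for the E-box, and the intervals leave room for differences of several points. GC content moved with these values: its median was 47.5% at members and 32.7% at weaker candidates, and its part in the difference between members and weaker candidates was not tested. Between classes of kept peaks, with windows limited to 40% to 55% G and C, the E-box share was 20.9% at members, 19.1% at promoter peaks, 22.4% at intronic peaks and 15.4% at X distal peaks.

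The E-box was commonest at the strongest distal summits. It stood at 8 of the 20 members ranked 1 to 100 (40%), 19 of 80 ranked 101 to 500 (23.8%) and 17 of 133 ranked 501 to 1115 (12.8%). Other autosomal peaks had 43.6%, 25.6% and 13.0% in the same ranges. The base 5′ of the motif, read on both strands, was C in 39 of 92 cases, T in 21, G in 19 and A in 13.

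**Figure D3:**
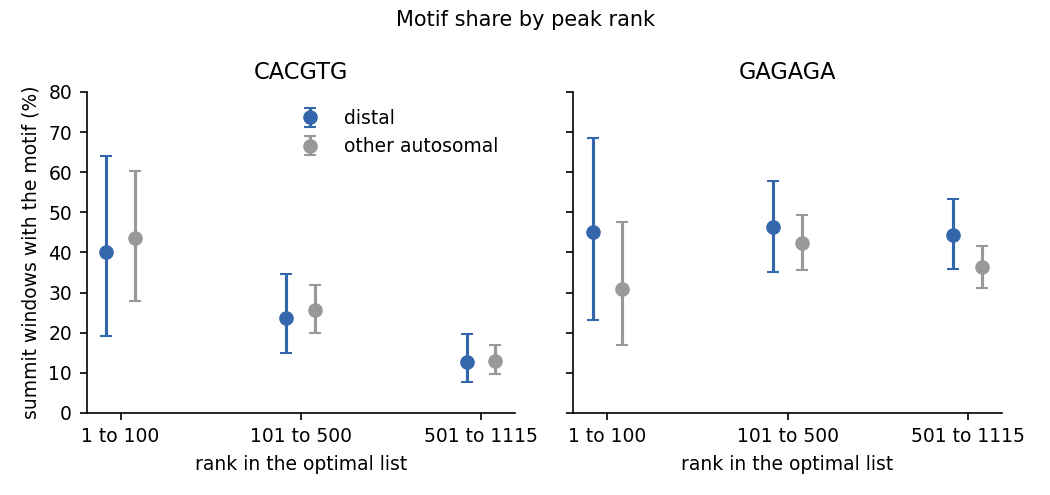
Percent of summit windows with CACGTG (left) and GAGAGA (right) by rank in the optimal list, for distal (blue) and other autosomal (grey) peaks, with 95% Clopper-Pearson intervals. The CACGTG share of distal peaks was 40% at ranks 1 to 100 and 12.8% at ranks 501 to 1115, while that of GAGAGA was 45% and 44.4%.

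The GA repeat was the commoner of the 2 motifs and stood at 105 distal summits (45.1%, interval 38.6 to 51.7). It was present in 9.12% of the weaker distal candidates and 5.59% of all eligible windows. Windows centred 500 bp downstream of the summit held it in 6.01% at members and 2% at X distal peaks, which was not tested. X distal peaks had it in 21% (interval 13.5 to 30.3), which is 24.1 points lower (interval of the difference 13.1 to 33.4, Fisher's exact test, adjusted p = 0.00034). This difference rested in part on replicate 1. In the 1115 strongest regions of replicate 1 alone the shares were 43.8% and 23.4% (adjusted p = 0.0031), and in those of replicate 2 alone 34.2% and 25.9% (adjusted p = 0.373, Fisher's exact tests). It was also not called among the 557 strongest peaks of the list, at 44.8% against 28% (adjusted p = 0.369, Fisher's exact test). With windows limited to 40% to 55% G and C the shares were 44.6% and 21.5% (adjusted p = 0.0231, Fisher's exact test).

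Promoter peaks had the GA repeat in 35.5%, 9.61 points below the members (interval 1.41 to 17.7), and the test missed the threshold after adjustment (raw p = 0.0230, adjusted p = 0.0749, Fisher's exact test). From replicate 2 alone the difference was -0.67 points and from replicate 1 alone 8.52. Intronic peaks had it in 44.0% (adjusted p = 0.931, Fisher's exact test). Both motifs stood at 15 members, GAGAGA alone at 90, and neither at 99 (42.5%). Median signal was 84.5 with CACGTG, 68.1 with GAGAGA alone and 67.6 with neither.

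**Figure D4:**
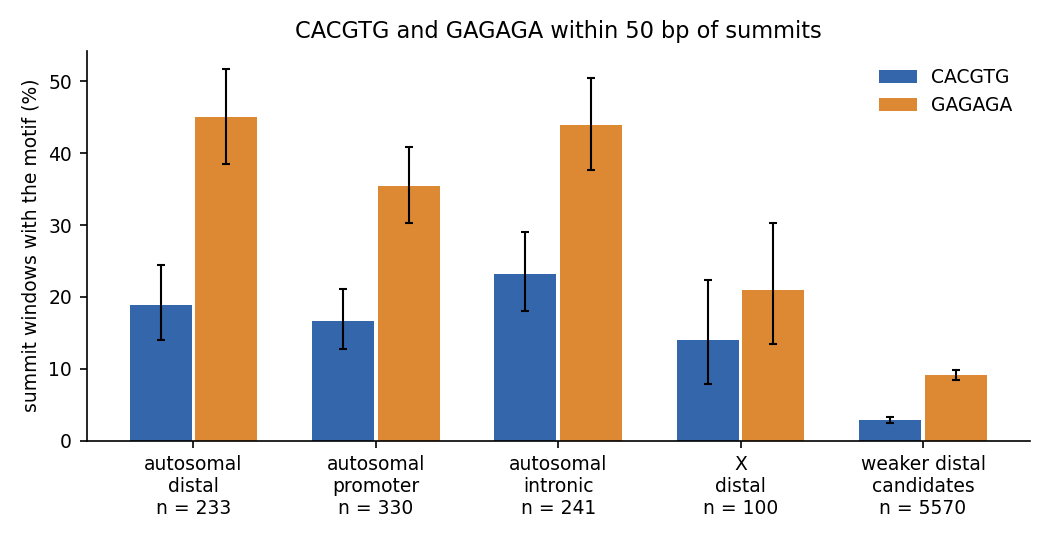
Percent of summit windows holding CACGTG (blue) and GAGAGA (orange) within 50 bp in each class of peaks, with 95% Clopper-Pearson intervals. Distal peaks had GAGAGA in 45.1% against 21% on the X, and weaker distal candidates were lower for both motifs.

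Other short motifs were counted on both strands with no test. CACGCG stood at 19 members (8.15%; 1.05% of eligible windows) and CATGTG, another E-box form, at 21 (9.01%; 3.02%). The other classes of kept peaks had higher shares of both, by differing amounts. For CACGCG the shares were 10.9% of promoter, 10.8% of intronic and 10% of X distal peaks, and for CATGTG 9.39%, 10.8% and 15%. The eligible windows were not matched to the members in GC content. The GATA-type motif TGATAA was at 26 (11.2%; 8.99%), against 4.24% of promoter peaks, 4% of X distal peaks, 7.47% of intronic peaks and 10.7% of weaker distal candidates. Runs of TTTTTT were at 52 (22.3%), below the 45.3% of eligible windows.

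The sequence that met the rule covered 19.4 Mb, 23.5% of the autosomes, and held 12.01 optimal peaks per Mb. Promoter windows held 18.7 per Mb, counting all 417 peaks in them, intronic ones included, and gene bodies outside them held 4.31. Of all autosomal candidates in the pooled list, 3.49% were kept in the optimal list, and of the distal ones 4.02% (233 of 5803), against 5.54% for promoter and 2.67% for intronic candidates. Distal summits made up 28.2% of kept and 24.4% of other candidates, a difference of 3.80 points (interval 0.78 to 7.01) that missed the threshold (adjusted p = 0.0587, Fisher's exact test). The difference moved with the limits of the rule. With 500 bp upstream and 200 bp downstream the shares were 37.7% and 29.9% (adjusted p = 4.6e-05), and with 2000 bp and 500 bp they were 18.4% and 17.1% (adjusted p = 0.646, Fisher's exact tests). By chromosome, III held the most per Mb of eligible sequence, 21.5 (60 members), and the other autosomes held 9.56 to 12.3. This was not tested.

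The optimal list was selected from these same replicates and their pooled data. Agreement of its peaks with the replicate lists was therefore partly set in advance, and is given as a description. All 233 members overlapped a region of both replicate lists by at least 1 bp. Nearly all autosomal peaks did so, 826 of 826 in replicate 1 and 825 in replicate 2. Of all autosomal peaks, 63.2% were among the 1115 strongest regions of both replicates, and of the members 148 (63.5%). Promoter peaks had 62.4% and intronic peaks 65.6% (adjusted p = 0.931 for each, Fisher's exact tests). A further 54 members were in that top set of replicate 1 only, 25 of replicate 2 only and 6 of neither. Of the 20 members ranked 1 to 100, all were in both, as were 74 of 80 ranked 101 to 500 and 54 of 133 below. Replicate signals had a Spearman rho of 0.53 and a Pearson r of 0.65 on the log2 scale over the 233 members, as a description, since 12 members shared their best region with another member in each replicate. Matching each member to the overlapping region with the nearest summit, a choice made after the ranks were seen, put 142 in both top sets.

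**Figure D5:**
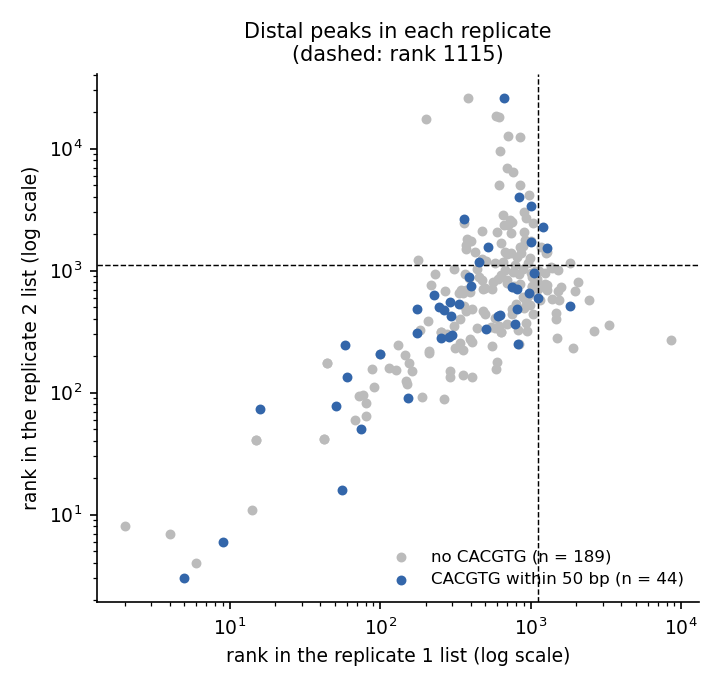
Rank of each of the 233 distal peaks in the replicate 1 (x axis) and replicate 2 (y axis) lists, log scales, with dashed lines at rank 1115 and members with CACGTG in blue. The strongest members rank high in both lists, and weaker members scatter towards low ranks in 1 list.

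The ranks differed by more than 5 times in 20 members, of which 15 ranked higher in replicate 1 and 5 in replicate 2. With matching by nearest summit there were 27, of which 19 ranked higher in replicate 1 and 8 in replicate 2. No such count is given for other peaks, so it cannot be read as particular to the members. The members named here were chosen after their values were seen. The peak between T27E4.7 and the heat shock gene hsp-16.1 ranked 201 in replicate 1 and 17463 in replicate 2. That between M106.3 and gmps-1 ranked 385 and 26199, and that between bris-1 and F28F9.3 ranked 8578 and 269.

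The members had 370 flanking genes, which is 3.37% of the 10982 genes beside eligible sequence. Lists of genes were described by count, and were chosen with earlier results in view. Of 16 stress and longevity regulators beside eligible sequence, 6 flanked a member: egl-9 (signal 491), mml-1 (187), the hypoxia factor hif-1 (154), the mitochondrial stress factor atfs-1 (76.4), egl-27 (69.9) and the FOXO factor daf-16 (59.1). Since egl-9 and hif-1 were known beforehand to have strong peaks, this count supports nothing by itself. The mml-1 summit was 1873 bp upstream of the gene, which encodes the Mondo partner of MXL-2, and mml-1 was the only one of 4 genes of the Myc-Mondo-Mad list that flanked a member. The hif-1 space held a pair of members, 2056 bp upstream (signal 154) and 1841 bp upstream (signal 64.6). The daf-16 summit was 1916 bp upstream, and its peak ranked 659 in replicate 1 and 2880 in replicate 2. The atfs-1 summit was 2595 bp beyond the 3′ end of the gene, and the strongest egl-27 summit was 7439 bp upstream.

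Nuclear receptor genes flanked members in 12 of 182 cases (6.59%), led by nhr-34 (194), nhr-88 (192), nhr-20 (170) and nhr-21 (156), and the space beside them held 18.4 members per Mb. Genes of the uncoordinated class did so in 6 of 64 (9.38%), led by the autophagy kinase gene unc-51 (146), the homeodomain gene unc-39 (144), the GABA receptor gene unc-49 (100) and the secretion gene unc-31 (91.0). Chemoreceptor genes, a large family, flanked members in 3 of 820 (0.366%), beside srw-60 (192), srbc-2 (83.6) and srx-113 (80.6). None of 36 ceh- homeobox or 201 F-box genes did. Smaller counts were 3 of 97 neuropeptide genes (ins-8, ins-13 and ins-10), 2 of 79 collagens (col-83 and col-105), 2 of 159 lectins (clec-182 and clec-91), 2 of 34 ribosomal protein genes (rpl-21 and rps-28), 1 of 14 helix-loop-helix genes (hlh-10) and 1 of 10 bZIP genes (zip-7).

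Genes that make no protein were not used by the rule, and 30 members (12.9%) had their summit in such a gene, against 12.7% of promoter peaks (adjusted p = 1, Fisher's exact test) and 7.92% of weaker distal candidates. They covered 15.1% of eligible bases. Most, 26 members, were in genes annotated as ncRNA. The 6 strongest were at ZK829.13 (508), T23F11.10 (503), F22E12.9 with F22E12.10 (491), linc-128 (223), the spliced leader gene sls-2.2 with C17C3.23 (180) and Y37A1B.330 with Y37A1B.333 (174). MicroRNA genes lay within 500 bp of 6 members (2.58%), and of 0.503% of weaker distal candidates, which was not tested. A higher share at members was not particular to microRNAs. Genes annotated as ncRNA lay as near to 21.5% of members and 11.01% of weaker candidates, and snoRNA genes to 3.004% and 0.682%. The snRNA, lincRNA and tRNA shares were also higher at members. Pseudogenes went the other way, at 2.15% and 6.07%, and no antisense RNA or rRNA gene lay within 500 bp of a member. The microRNA genes, chosen after their values were seen, were mir-52, mir-241, mir-80, mir-79 and mir-238. Beside mir-52 was a pair of members with signals of 174 and 80.3, which are summits of the same deposited interval and were counted separately. The let-7 family member mir-241 was 433 bp downstream of a summit with a signal of 144. Signals at mir-80, mir-79 and mir-238 were 65.5, 56.2 and 51.2.

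The limits of the rule cut through peaks of like strength. Just inside were summits 1008 bp upstream of slc-17.2 (signal 57.1), 1020 bp upstream of ech-2 (59.6) and 1023 bp upstream of mstr-1 (108). Just outside were summits 995 bp upstream of K11D12.13 (109.5), 982 bp upstream of adah-1 (52.8) and 960 bp upstream of lin-23 (161). The nearest members downstream of a 5′ end were 851 bp from that of F25E5.9 and 895 bp from that of C06B3.6. The weakest member, 1138 bp upstream of T08G5.3 and with ins-10 on its other side, had a signal of 48.2, and the strongest distal candidate that was not kept had 48.1.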

How the data were processed

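MDL-1 ChIP-seq peak lists of 2 biological replicates of 1 group were used. The deposited lists give each region a signal value, on the scale of the authors' peak caller, and a summit: 30000 candidate regions for each replicate and for the pooled data, and 1115 in the optimal list, selected by the irreproducible discovery rate per the file names. For the aligner, the caller and the selection threshold, no name or value was found (not given in the sources used here). Depth is unknown, and intervals cover counting error only. Summits were placed on WBcel235 (ce11) with Ensembl release 115, and sequence came from RefSeq. Motifs were searched on both strands within 50 bp of summits. Shares were compared by Fisher's exact test, two-sided, with Benjamini-Hochberg adjustment over 13 tests and a threshold of 0.05; with 1 group there is no test between samples. The classification and test were tested on simulated data. Genes named are the flanks of the 12 strongest members, of the 6 strongest with CACGTG, of the spaces with most members (8 tied at 3, all named) and up to 4 per gene list, with noncoding genes at the 6 strongest such summits and peaks at the rule's limits. Members and lists were chosen with earlier results of these data known. Replicate ranks use the strongest region overlapping by 1 bp; matching by nearest summit was added later. Python 3.11.15, numpy 2.4.6, pandas 2.3.3, scipy 1.17.1 and matplotlib 3.10.9 were used.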

Additional observations from a re-analysis of the deposited data

How the results depend on the processing

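Differences below are distal minus the other class, in percentage points, with Fisher's exact tests adjusted over the tests run. Of 109 alternative values, 86 kept their direction and side of the threshold. The share of distal summits among kept candidates passed from single replicates (4.34 to 5.34). It also passed with limits of 500 bp upstream and 200 bp downstream (7.71). It did not pass with limits of 2000 and 500 bp (1.26) or with all gene bodies left out (1.92). Here and below, the last setting left out the bodies of all annotated genes except piRNA genes. GAGAGA against promoter peaks passed with limits of 500 bp upstream and 200 bp downstream (10.3) and with all annotated gene bodies left out (12.8). It was not called with limits of 2000 and 500 bp (8.88), and ran from -0.67 to 8.52 over single replicates. GAGAGA against X distal peaks was not called among the 557 strongest peaks (16.8), and ran from 8.25 (replicate 2 alone) to 20.5. The neighbour difference was not called with the interval's middle in place of the summit (9.44), among the 557 strongest (6.89) or with all gene bodies left out (9.06), and ran from 11.0 to 11.7 over single replicates. The remaining changes of direction were in differences that passed no test, save the first. Noncoding genes at summits gave -12.7 with all gene bodies left out, by construction, -0.45 with limits of 2000 and 500 bp, -0.53 with the interval's middle, -0.011 among the 557 strongest, and -1.86 to 2.05 over single replicates. GAGAGA against intronic peaks gave -4.77 among the 557 strongest and -4.69 to 3.01 over single replicates. Signal above the median gave 0.59 against intronic peaks with limits of 2000 and 500 bp, and -4.31 to -2.77 against promoter peaks over single replicates. Presence in both replicates against promoter peaks gave -4.34 among the 557 strongest and -1.97 with the 2230 strongest regions of each replicate. The causes were not tested. Matching replicate regions by nearest summit, added after seeing the data, gave 2.46 and -1.30 against promoter and intronic peaks and changed no call. No paired analysis was possible because there is 1 group. Depth is unknown, so what it limits cannot be stated.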
